A study of Mus musculus with 8 samples.

Results

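The genes described here are those of glycolysis and of the cellular response to low oxygen, chosen by symbol: glycolytic enzymes, glucose and lactate transporters, subunits of the hypoxia-inducible factors (HIFs), their prolyl hydroxylases and known HIF targets. All 33 symbols were found, on 34 of the 53379 gene entries of each table, because Aldoa is listed under 2 identifiers. All 34 entries passed the filter on low counts and were among the 14991 genes tested. RNA was taken from epithelial cells of the distal colon of C57BL/6 mice, with 2 libraries in each of 4 groups. The groups are the intestine-specific Rora knock-out RORaΔIEC (KO) given dextran sulfate sodium (DSS), the floxed strain RORaf/f (WT) given DSS, untreated KO and untreated WT. DSS is a sulfated polymer toxic to the colon surface; treated mice drank it as a 2% (w/v) solution over 5 days and then had plain water for 3 days. The labels name neither the driver of the deletion nor the age or sex of the mice. They do not say that the 2 libraries of a group came from separate animals, so p-values measure only the spread between these libraries, which may be technical.

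Glycolysis turns glucose into pyruvate in the cytoplasm and yields ATP without oxygen, and lactate dehydrogenase keeps it running by turning pyruvate into lactate, which leaves the cell through transporters. When oxygen is plentiful, prolyl hydroxylases of the Egln family mark the alpha subunits HIF1A and EPAS1 for destruction. When oxygen is scarce, the alpha subunits persist, pair with ARNT and bind DNA at a short core motif near the genes of most glycolytic enzymes and of further targets. The lining of the colon normally lives at low oxygen beside an almost anaerobic lumen, and HIF signalling there is known for its role in keeping the epithelial barrier. Rora encodes an orphan nuclear receptor that binds DNA as a monomer. The labels set the 2 genotypes beside each other with and without DSS, which asks how these genes stand in Rora-deficient epithelium at rest and after injury.

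A further feature described here is the sequence at the start sites. The core motif ACGTG was searched on both strands from 250 bases before to 50 bases after each annotated start, in RefSeq promoters of GRCm38.p6, which held 31 of the 33 symbols. It was present for 22 of the 31 genes (71.0%), against 5886 of 27025 genes of the whole table (21.8%). The related core GCGTG was present for 20 of the 31 (64.5%), against 35.2% of all genes. The core binding site of ROR receptors, AGGTCA, was present for 6 of the 31 (19.4%), against 18.1% of all genes. Counted per promoter, ACGTG was present in 25 of the 43 promoters of these genes (58.1%), against 19.6% of all promoters. These shares are descriptions, and they are not independent of the choice of genes, which were partly chosen as HIF targets. The following stretches are from genes whose levels are described below, with ACGTG and its reverse complement CACGT in capitals; CACGTG reads as a match on both strands.
Pgk1, chrX:106186914-106187013, plus strand: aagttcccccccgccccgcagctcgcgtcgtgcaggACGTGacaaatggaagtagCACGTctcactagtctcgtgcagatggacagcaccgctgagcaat
Ldha, chr7:46845704-46845803, plus strand: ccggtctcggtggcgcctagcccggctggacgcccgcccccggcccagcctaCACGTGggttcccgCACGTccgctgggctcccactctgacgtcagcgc
Hk2, chr6:82774462-82774561, minus strand: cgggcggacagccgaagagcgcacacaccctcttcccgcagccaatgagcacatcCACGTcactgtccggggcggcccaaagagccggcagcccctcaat
Pgam1, chr19:41911702-41911801, plus strand: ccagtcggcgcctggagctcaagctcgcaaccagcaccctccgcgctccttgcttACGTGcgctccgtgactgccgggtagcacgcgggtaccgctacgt
P4ha1, chr10:59323196-59323295, plus strand: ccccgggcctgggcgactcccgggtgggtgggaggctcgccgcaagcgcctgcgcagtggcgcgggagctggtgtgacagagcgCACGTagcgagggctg
Egln3, chr12:54204059-54204124, minus strand: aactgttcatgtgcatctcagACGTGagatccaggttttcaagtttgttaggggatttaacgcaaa
Bnip3, chr7:138909569-138909668, minus strand: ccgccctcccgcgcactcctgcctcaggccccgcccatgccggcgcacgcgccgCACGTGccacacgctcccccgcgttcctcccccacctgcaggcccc
Each stretch runs 5′ to 3′ on the strand of its gene and overlaps no annotated exon. Ldha carried 3 matches here, Pgk1 and Bnip3 2 each, and Hk2, Pgam1, P4ha1 and Egln3 1 each.

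**Figure D1:**
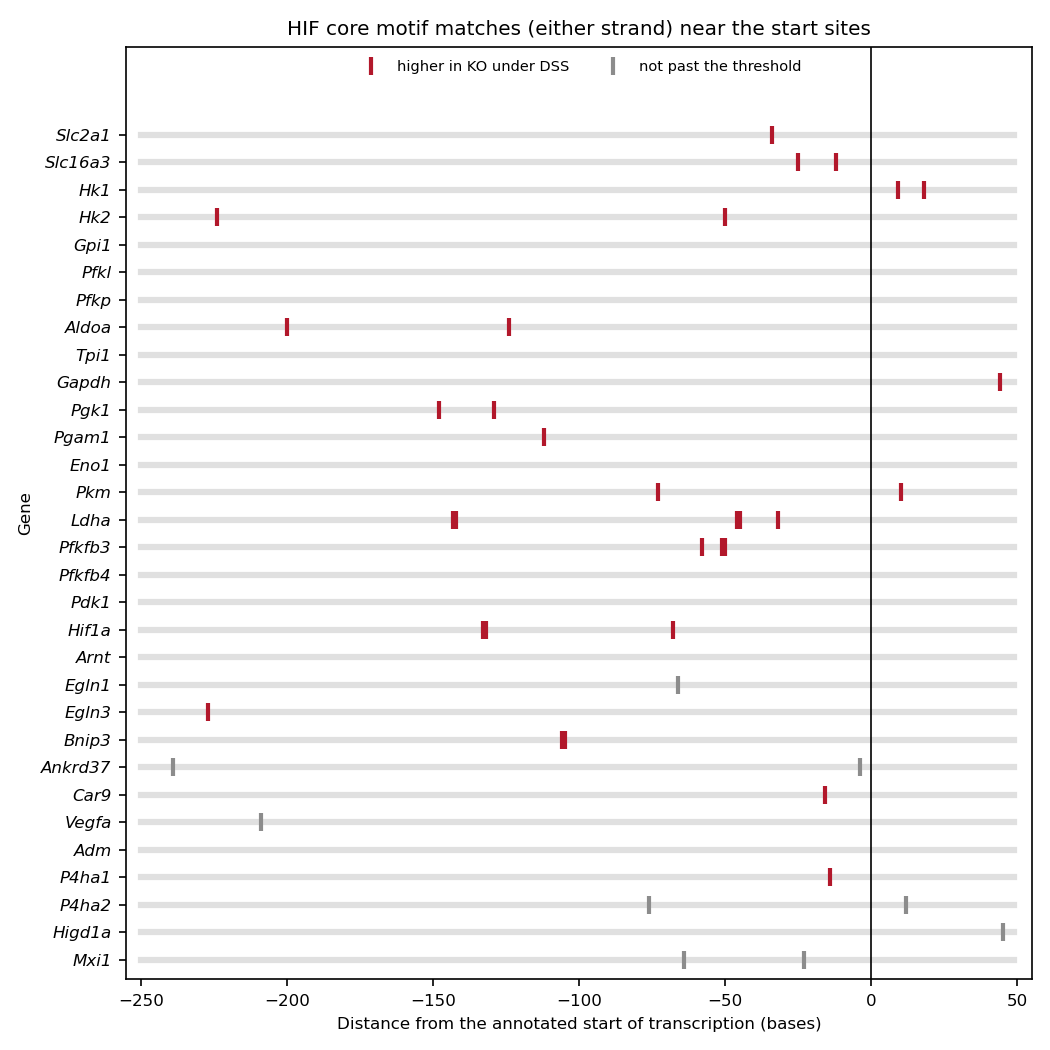
Position of ACGTG matches on either strand (ticks) from 250 bases before to 50 bases after the annotated start sites of the 31 genes with a RefSeq promoter; alternative starts of a gene share its line. Red ticks mark genes higher in DSS-treated KO than in DSS-treated WT and grey ticks genes not past the threshold; 9 of the 31 genes have no match.

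The library totals lay between 15971642 and 20418466 expected counts. Levels are CPM, a library's counts divided by its scaled total, and a count of 3 in 1 library corresponds to 0.150 to 0.191 CPM. Under DSS the 2 KO libraries held 8 and 5 counts of Rora and the 2 WT libraries 16 and 14; without it, KO held 4 and 3 and WT 12 and 6. Counts over the whole gene do not tell whether the deleted part is missing. General epithelial markers summed to between 19539 and 22863 CPM in every library, while neutrophil markers summed to 306 and 329 CPM in DSS-treated KO, 52.5 and 56.6 CPM in DSS-treated WT, 86.1 and 86.3 CPM in untreated KO and 99.8 and 97.4 CPM in untreated WT. Most of the WT sums came from Ly6g. Of the 12 neutrophil markers, 8 were at 0 in untreated KO and 7 in untreated WT, so these sums do not track neutrophil content. Between replicates the median coefficient of variation over the 34 entries was 4.07% in DSS-treated KO, 2.62% in DSS-treated WT, 1.80% in untreated KO and 1.99% in untreated WT. In bulk RNA a change in the share of cells of a type and a change in RNA per cell cannot be told apart, which holds for every level below.

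Compared per transcript length, in the authors' TPM, the levels of the genes differed widely. Gapdh was the most abundant, with 1381 to 2388 TPM over the 8 libraries, followed by Aldoa with 916 to 1172 TPM, Ldha with 751 to 1394 TPM and Pkm with 583 to 1056 TPM. Within every library Pkm was below both Aldoa and Ldha. Ldha was above Aldoa only in the DSS-treated KO libraries, with 1335 and 1394 TPM against 1122 and 1172 TPM. Tpi1, Eno1, Gpi1 and Pgk1 came next, with means of 413 to 533 TPM, and Pgam1 averaged 200.3 TPM. Of the enzymes, the hexokinases Hk1 and Hk2 and the phosphofructokinase subunits Pfkl and Pfkp, which act early in the pathway, were lower, between 57.1 and 133 TPM. Hif1a had 57.9 to 114 TPM and Epas1 30.9 to 42.7 TPM, without overlap. The lowest were Adm with 2.57 to 5.36 TPM, P4ha2 with 1.46 to 3.62 TPM and Pfkfb3 with 0.48 to 4.95 TPM.

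**Figure D2:**
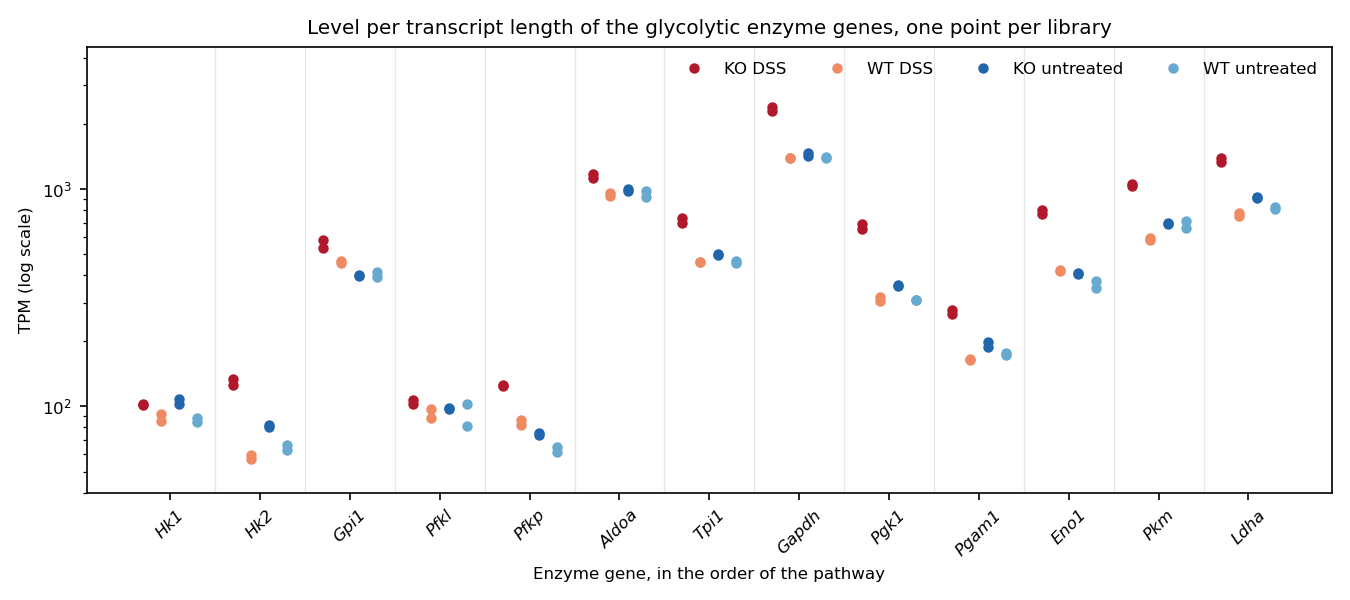
TPM (log axis) of the 13 glycolytic enzyme genes in the order of the pathway, 1 point per library, 2 libraries per group. Gapdh is the highest and Hk2, Pfkp, Hk1 and Pfkl the lowest. For 12 of the 13 enzymes both DSS-treated KO libraries lie above the other 6 in TPM, and for Hk1 they do not. For Pfkl the margin is only 102.22 against 102.07 TPM. In CPM, the scale tested, Pfkl had 220 and 226 CPM in DSS-treated KO. That is below untreated KO (235 and 233 CPM) and untreated WT (227 and 233 CPM).

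Most of these genes were higher in DSS-treated KO than in DSS-treated WT. In edgeR's quasi-likelihood test, with a gene called at a Benjamini-Hochberg adjusted p under 0.05, 22 of the 34 entries were higher and 2 were lower (70.6%), where 39.1% of all genes tested were called in this comparison, 21.3% higher and 17.7% lower. The median log2 fold change over the 34 entries was 0.42, beside -0.01 over all genes, and the libraries of the 2 groups did not overlap in 30 of the 33 genes and in 68.1% of all genes. The enzymes of glycolysis except Pfkl, lactate export and 2 regulators of its flux were among the genes that rose, together with Hif1a, Egln3, Bnip3, Car9, Adm and P4ha1. Epas1 and Ndrg1 were lower, and the angiogenic factor Vegfa was not called. The 34 entries took 1.17 and 1.23% of all counts in the DSS-treated KO libraries, against 0.795 and 0.793% in those of DSS-treated WT. Without DSS the shares were 0.867 and 0.872% for KO, against 0.824 and 0.838% for WT.

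Markers of other cells moved with this comparison. All 10 of the 10 tested neutrophil markers and 7 of the 12 tested monocyte and macrophage markers were higher in DSS-treated KO than in DSS-treated WT. Monocyte and macrophage markers summed to 165 and 173 CPM in DSS-treated KO, 77.8 and 77.7 CPM in DSS-treated WT, 49.3 and 51.8 CPM in untreated KO and 49.3 and 51.0 CPM in untreated WT. Of the 12 neutrophil markers, none was at 0 in DSS-treated KO and 3 were at 0 in DSS-treated WT (Camp, Mpo and Ngp). These 3 were at 0 in both untreated groups as well. The filter on low counts asks for enough counts in only as many libraries as 1 group holds. A marker at 0 outside DSS-treated KO can pass it through that group alone and then be called only as higher. The count of 10 of 10 was therefore partly fixed by the filter. All 10 cell division markers were higher as well, with sums of 1003 and 964 CPM in DSS-treated KO, 461 and 454 CPM in DSS-treated WT, 679.5 and 683 CPM in untreated KO and 475 and 473 CPM in untreated WT. Of the 5 tested fibroblast markers, 4 were higher and 1 was lower (2 higher with DESeq2), with sums of 17.3 to 18.3 CPM in DSS-treated KO and 15.1 to 15.7 CPM in DSS-treated WT. Of 11 surface colonocyte markers 2 were higher and 5 lower, of 7 tested B and plasma cell markers 1 was higher and 2 were lower, of 5 erythrocyte markers 4 were lower, of 2 tested endothelial markers 1 was lower, and of 4 tested T and NK cell markers none was called. The share of counts from mitochondrial genes was 5.29 and 4.91% in DSS-treated KO, against 7.45 and 7.50% in DSS-treated WT. The part of these differences in the results was not tested. Leaving out either DSS-treated KO library kept all 24 calls.

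**Figure D3:**
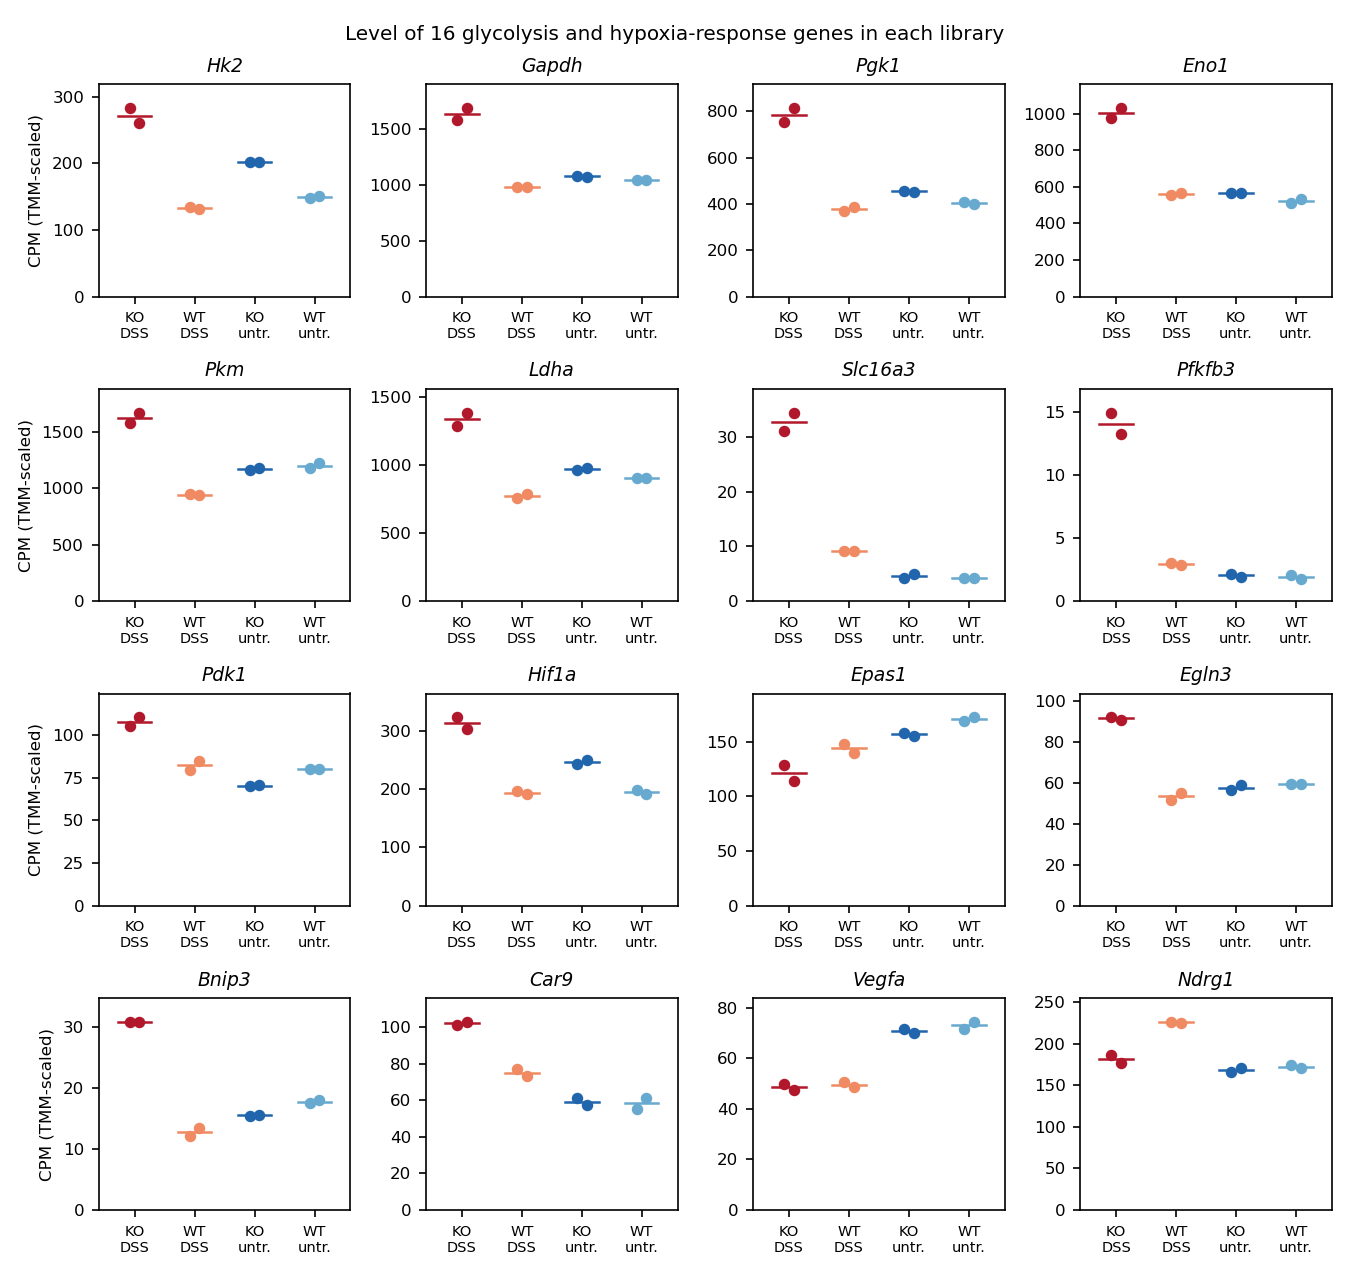
CPM (linear axes from 0) of 16 of the genes in each library (points), with the mean of the 2 libraries of a group (lines); groups from left to right are KO with DSS, WT with DSS, untreated KO and untreated WT. For Slc16a3, Pfkfb3, Bnip3, Pgk1 and the other enzymes shown, both DSS-treated KO libraries lie above the other 6, whereas Vegfa is lower in both DSS groups and Ndrg1 is highest in DSS-treated WT.

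Uptake of glucose and export of lactate frame the pathway. Slc16a3 (chromosome 11, 120948480 to 120960868, mm10) encodes the lactate exporter MCT4 and had 31.2 and 34.6 CPM in DSS-treated KO, 9.19 and 9.13 CPM in DSS-treated WT, 4.26 and 4.96 CPM in untreated KO and 4.20 and 4.26 CPM in untreated WT. Every DSS-treated KO library was above every other library, and the DSS-treated WT libraries were above the untreated ones. The log2 fold change in DSS-treated KO over DSS-treated WT, given here and below ± its SE, was 1.84 ± 0.09, adjusted p = 1.94e-09, a 3.59-fold difference. Slc2a1, the glucose transporter GLUT1, averaged 164 CPM in DSS-treated KO and 136 CPM in DSS-treated WT, without overlap (0.27 ± 0.05, adjusted p = 0.000341).

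Of the 13 glycolytic enzymes, 12 were higher in DSS-treated KO than in DSS-treated WT, by 1.10- to 2.08-fold, and Pfkl was not called (0.09 ± 0.04, adjusted p = 0.0864). Summed over the 13 enzymes and the second Aldoa entry, the level was 9863 and 10432 CPM in DSS-treated KO, 6572 and 6566 CPM in DSS-treated WT, 7439 and 7478 CPM in untreated KO and 7099 and 7215 CPM in untreated WT. Pgk1, phosphoglycerate kinase, which makes ATP (chromosome X, 106187100 to 106203699), had 756 and 814 CPM in DSS-treated KO, 369 and 386 CPM in DSS-treated WT, 456 and 453 CPM in untreated KO and 407 and 399 CPM in untreated WT. Both DSS-treated KO libraries were above those of DSS-treated WT, 1.06 ± 0.04 on the log2 scale with an adjusted p of 5.25e-10. Hk2, the inducible hexokinase that traps glucose in the cell (chromosome 6, 82725025 to 82774454), had 283 and 260.0 CPM in DSS-treated KO, 135 and 132 CPM in DSS-treated WT, 201 and 202 CPM in untreated KO and 148 and 151 CPM in untreated WT. All 4 KO libraries were above all 4 WT libraries, and the log2 fold change under DSS was 1.02 ± 0.05, adjusted p = 1.21e-09.

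The later steps of the pathway were higher in DSS-treated KO as well. Eno1, enolase, had 974 and 1030.4 CPM in DSS-treated KO, 556 and 565 CPM in DSS-treated WT, 564 and 566 CPM in untreated KO and 509 and 531 CPM in untreated WT. Ldha, which makes lactate, had 1288 and 1383 CPM in DSS-treated KO, 758 and 785 CPM in DSS-treated WT, 964 and 973 CPM in untreated KO and 899.8 and 902 CPM in untreated WT. Pkm, pyruvate kinase, had 1581 and 1673 CPM in DSS-treated KO, 947 and 942 CPM in DSS-treated WT, 1165 and 1180.4 CPM in untreated KO and 1179 and 1222 CPM in untreated WT. In all 3 genes the DSS-treated KO libraries lay above the other 6, with log2 fold changes over DSS-treated WT of 0.84 ± 0.04, adjusted p = 2.08e-09 for Eno1, 0.79 ± 0.04, adjusted p = 4.13e-09 for Ldha and 0.78 ± 0.04, adjusted p = 2.59e-09 for Pkm. Gapdh, the dehydrogenase in the middle of the pathway and a common reference gene, had 1584 and 1687 CPM in DSS-treated KO, 979 and 980.0 CPM in DSS-treated WT, 1082 and 1069.6 CPM in untreated KO and 1039 and 1046 CPM in untreated WT. It was 1.67-fold higher in DSS-treated KO than in DSS-treated WT (0.74 ± 0.04, adjusted p = 4.43e-09). Gapdh shares sequence with 90 near-identical genes that together held 2.16% of its count, and the calls of Gapdh, Pkm, Pgk1, Eno1 and Bnip3 were kept when such copies were added to them, with 1 call gained, Eno1 for DSS in WT (0.11, adjusted p = 0.0434).

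Pgam1, phosphoglycerate mutase, had 307 and 329 CPM in DSS-treated KO, 199 and 198 CPM in DSS-treated WT, 251 and 240.1 CPM in untreated KO and 234 and 225 CPM in untreated WT, and its libraries did not overlap between DSS-treated KO and DSS-treated WT (0.68 ± 0.05, adjusted p = 5.57e-08). Tpi1, triosephosphate isomerase, had 666 and 726 CPM in DSS-treated KO, 453 and 462 CPM in DSS-treated WT, 515 and 522 CPM in untreated KO and 509 and 503 CPM in untreated WT. It too was highest in both DSS-treated KO libraries (0.61 ± 0.04, adjusted p = 1.04e-07). Pfkp, the platelet-type phosphofructokinase subunit, had 265 and 265 CPM in DSS-treated KO, 195 and 189 CPM in DSS-treated WT, 173 and 177 CPM in untreated KO and 152 and 152 CPM in untreated WT. It was higher in both DSS groups than in either untreated group, and higher in DSS-treated KO than in DSS-treated WT (0.47 ± 0.04, adjusted p = 6.22e-07). Exons of Pfkp share 748 bases with Pitrm1 on the opposite strand, whose count was 18.7% of that of Pfkp, and without a known strand setting reads of the shared bases cannot be told apart.

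Hk1, the housekeeping hexokinase, Gpi1, glucose phosphate isomerase, and Aldoa, aldolase, showed the smallest changes among the enzymes that were called, with log2 fold changes in DSS-treated KO over DSS-treated WT of 0.14 ± 0.04, 0.16 ± 0.04 and 0.22 ± 0.04. Hk1 and Gpi1 lost their call without DSS-treated WT replicate 2 (largest adjusted p over the alternatives 0.158 for Hk1 and 0.0931 for Gpi1), and Hk1 also with transcript length offset and with only the 4 libraries compared. Pfkl was called without DSS-treated KO replicate 1 (0.12 on the log2 scale, adjusted p = 0.0261). The second Aldoa entry (ENSMUSG00000114515.2) had only 6 to 14 counts per library, with 0.345 and 0.343 CPM in DSS-treated KO, 0.661 and 0.530 CPM in DSS-treated WT, 0.890 and 0.735 CPM in untreated KO and 0.651 and 0.392 CPM in untreated WT, and was not called in this comparison.

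Regulators of the flux through glycolysis split. Pfkfb3, an enzyme that makes the allosteric activator of phosphofructokinase (chromosome 2, 11471433 to 11554077), had 15.0 and 13.2 CPM in DSS-treated KO, 3.00 and 2.89 CPM in DSS-treated WT, 2.16 and 1.90 CPM in untreated KO and 2.10 and 1.74 CPM in untreated WT. Both DSS-treated KO libraries lay above the other 6, and its 4.78-fold difference from DSS-treated WT was the largest of the 34 entries (2.26 ± 0.15, adjusted p = 3.16e-08). Pdk1, the kinase that shuts pyruvate out of mitochondrial oxidation by inhibiting pyruvate dehydrogenase, had 105 and 111 CPM in DSS-treated KO, 79.5 and 84.9 CPM in DSS-treated WT, 70.0 and 70.6 CPM in untreated KO and 80.2 and 80.0 CPM in untreated WT. It was highest in both DSS-treated KO libraries (0.39 ± 0.05, adjusted p = 2.34e-05). Pfkfb4, a paralogue of Pfkfb3, had 21.2 and 21.9 CPM in DSS-treated KO, 22.8 and 24.2 CPM in DSS-treated WT, 29.8 and 33.7 CPM in untreated KO and 32.4 and 31.7 CPM in untreated WT. It was lower in both DSS groups than in the untreated groups and was not called between the DSS-treated genotypes (-0.13 ± 0.08, adjusted p = 0.216).

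The HIF alpha subunits moved in opposite directions in DSS-treated KO. Hif1a (chromosome 12, 73901375 to 73947530) had 324 and 303 CPM in DSS-treated KO, 196 and 191 CPM in DSS-treated WT, 243 and 249 CPM in untreated KO and 199 and 192 CPM in untreated WT. All 4 KO libraries were above all 4 WT libraries, by 0.70 ± 0.05, adjusted p = 3.06e-08 under DSS. Epas1, which encodes HIF2A, had 129 and 114 CPM in DSS-treated KO, 148 and 139.9 CPM in DSS-treated WT, 158 and 155 CPM in untreated KO and 169 and 172 CPM in untreated WT. Both DSS-treated KO libraries were the lowest of the 8 (-0.24 ± 0.06, adjusted p = 0.00334); the fall lost its call without DSS-treated WT replicate 1 (adjusted p = 0.0517) and was -0.16 without DSS-treated KO replicate 2. Arnt, the shared beta subunit, had 54.9 and 50.7 CPM in DSS-treated KO, 56.0 and 52.2 CPM in DSS-treated WT, 55.2 and 48.5 CPM in untreated KO and 49.5 and 51.8 CPM in untreated WT, with overlapping libraries and no call in any comparison (-0.03 ± 0.07, adjusted p = 0.727 here).

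Of the prolyl hydroxylases, which mark the alpha subunits for destruction, Egln3 is itself a known HIF target and Egln1 is the main oxygen sensor. Egln3 had 92.2 and 90.9 CPM in DSS-treated KO, 51.7 and 55.2 CPM in DSS-treated WT, 56.4 and 59.0 CPM in untreated KO and 59.6 and 59.4 CPM in untreated WT. Both DSS-treated KO libraries were above the other 6, 1.71-fold higher than in DSS-treated WT (0.78 ± 0.05, adjusted p = 3.71e-08). Egln1 had 55.1 and 59.6 CPM in DSS-treated KO, 53.0 and 54.3 CPM in DSS-treated WT, 59.9 and 64.3 CPM in untreated KO and 66.6 and 64.5 CPM in untreated WT. Its DSS-treated KO and DSS-treated WT libraries did not overlap, yet it was not called (0.10 ± 0.06, adjusted p = 0.211); libraries of these groups did not overlap for 68.1% of all genes tested.

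Of the 10 other HIF targets, 4 were higher in DSS-treated KO than in DSS-treated WT, 1 was lower and 5 were not called. Bnip3, a receptor for the removal of mitochondria (chromosome 7, 138890836 to 138909519), had 30.8 and 31.0 CPM in DSS-treated KO, 12.2 and 13.4 CPM in DSS-treated WT, 15.5 and 15.6 CPM in untreated KO and 17.5 and 18.1 CPM in untreated WT. Both DSS-treated KO libraries were the highest and both DSS-treated WT libraries the lowest of the 8, a 2.41-fold difference (1.27 ± 0.08, adjusted p = 1.53e-08). Car9, a carbonic anhydrase of the cell surface, had 101 and 103 CPM in DSS-treated KO, 77.0 and 73.5 CPM in DSS-treated WT, 61.1 and 57.6 CPM in untreated KO and 55.4 and 61.4 CPM in untreated WT. The untreated libraries were the lowest and the DSS-treated KO libraries the highest (0.44 ± 0.06, adjusted p = 2.11e-05 between the DSS-treated genotypes). An antisense gene that shares 214 exonic bases with Car9 held 12.1% of its count.

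P4ha1, the catalytic subunit of collagen prolyl hydroxylase, had 18.0 and 18.5 CPM in DSS-treated KO, 12.5 and 8.95 CPM in DSS-treated WT, 9.47 and 10.7 CPM in untreated KO and 10.7 and 10.4 CPM in untreated WT. The DSS-treated WT libraries were far apart but both below DSS-treated KO (0.77 ± 0.12, adjusted p = 0.000178). Adm, the vasodilator peptide adrenomedullin, had 4.20 and 4.29 CPM in DSS-treated KO, 2.40 and 2.30 CPM in DSS-treated WT, 3.30 and 2.69 CPM in untreated KO and 2.40 and 2.52 CPM in untreated WT. Its DSS-treated KO libraries were the highest of the 8 (0.85 ± 0.19, adjusted p = 0.00263). Vegfa had 49.9 and 47.6 CPM in DSS-treated KO, 50.5 and 48.5 CPM in DSS-treated WT, 71.8 and 70.0 CPM in untreated KO and 71.8 and 74.6 CPM in untreated WT. Its DSS-treated genotypes overlapped (-0.02 ± 0.06, adjusted p = 0.795), with both DSS groups below both untreated groups. Ndrg1, a gene linked to differentiation and stress, averaged 182 CPM in DSS-treated KO and 226 CPM in DSS-treated WT (-0.32 ± 0.04, adjusted p = 4.34e-05).

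Ankrd37, an ankyrin repeat protein, P4ha2, a second collagen hydroxylase subunit, Higd1a, a protein of the inner mitochondrial membrane, and Mxi1, an antagonist of Myc, were not called between the DSS-treated genotypes, with log2 fold changes of 0.21 ± 0.11, 0.24 ± 0.19, 0.15 ± 0.06 and 0.01 ± 0.05. Higd1a was close to the threshold (adjusted p = 0.051). Without DSS-treated KO replicate 1, Higd1a and Ankrd37 were called (adjusted p = 0.0147 and 0.034), and without either untreated WT library Higd1a was called (0.0356 and 0.0359). Exons of Ankrd37 overlap those of Ufsp2 on the opposite strand, whose count was 453% of its own.

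Genes with and without the motif of the stretches above were among those that moved. Of the 22 genes with ACGTG near a start site, 16 were higher in DSS-treated KO than in DSS-treated WT. Of the 9 without it, 6 were higher: Gpi1, Pfkp, Tpi1, Eno1, Pdk1 and Adm. Egln1, Ankrd37, Vegfa, P4ha2, Higd1a and Mxi1 held the motif and were not called, and Pfkl, Pfkfb4 and Arnt lacked it and were not called. Epas1 and Ndrg1, which were lower, had no promoter in the set. Of all genes tested, with or without the motif, 21.3% were higher.

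At rest the genotypes differed in fewer of these genes. Between untreated KO and untreated WT, 5 of the 34 entries were higher and 1 was lower (17.6%), where 15.4% of all genes tested were called, 9.19% higher and 6.22% lower; the share is close to that of all genes. The median log2 fold change was 0.04 over the 34 entries and 0.01 over all genes. Hk2 averaged 202 CPM in untreated KO and 149.6 CPM in untreated WT (0.43 ± 0.05, adjusted p = 2.96e-05), and Hif1a averaged 246 CPM in untreated KO and 195 CPM in untreated WT (0.33 ± 0.05, adjusted p = 0.000186); both held under every alternative tried, with Hk2 at 0.28 when differences in transcript length were offset. Hk1 (0.21 ± 0.04), Pfkp (0.20 ± 0.04) and Pgk1 (0.17 ± 0.04) were higher as well and Pdk1 was lower (-0.19 ± 0.05). The untreated libraries of the 2 genotypes did not overlap in 25 of the 33 genes, these 6 included, and in 59.4% of all genes tested.

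None of the 10 other HIF targets, the transporters or the prolyl hydroxylases was called at rest, and the other 9 enzymes had log2 fold changes between -0.05 and 0.12. The count of 6 depended on which libraries entered the model, also on libraries outside this comparison. Higd1a was called without untreated WT replicate 1 (adjusted p = 0.0412). The count was 2 without untreated KO replicate 2, when only Hk2 and Hif1a were called, and 11 without either DSS-treated KO library, when Epas1, Mxi1, Higd1a, Ldha and Eno1 were called as well. Pdk1 and Pgk1 lost their call when any 1 of the 4 untreated libraries was left out, and Pdk1 also with DESeq2 and with transcript length offset. Hk1 lost it without untreated WT replicate 1, and Hk1 and Pfkp lost it without untreated KO replicate 2. All 10 cell division markers were higher in untreated KO than in untreated WT, and 8 of 12 neutrophil markers were at 0 in untreated KO and 7 in untreated WT.

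**Figure D4:**
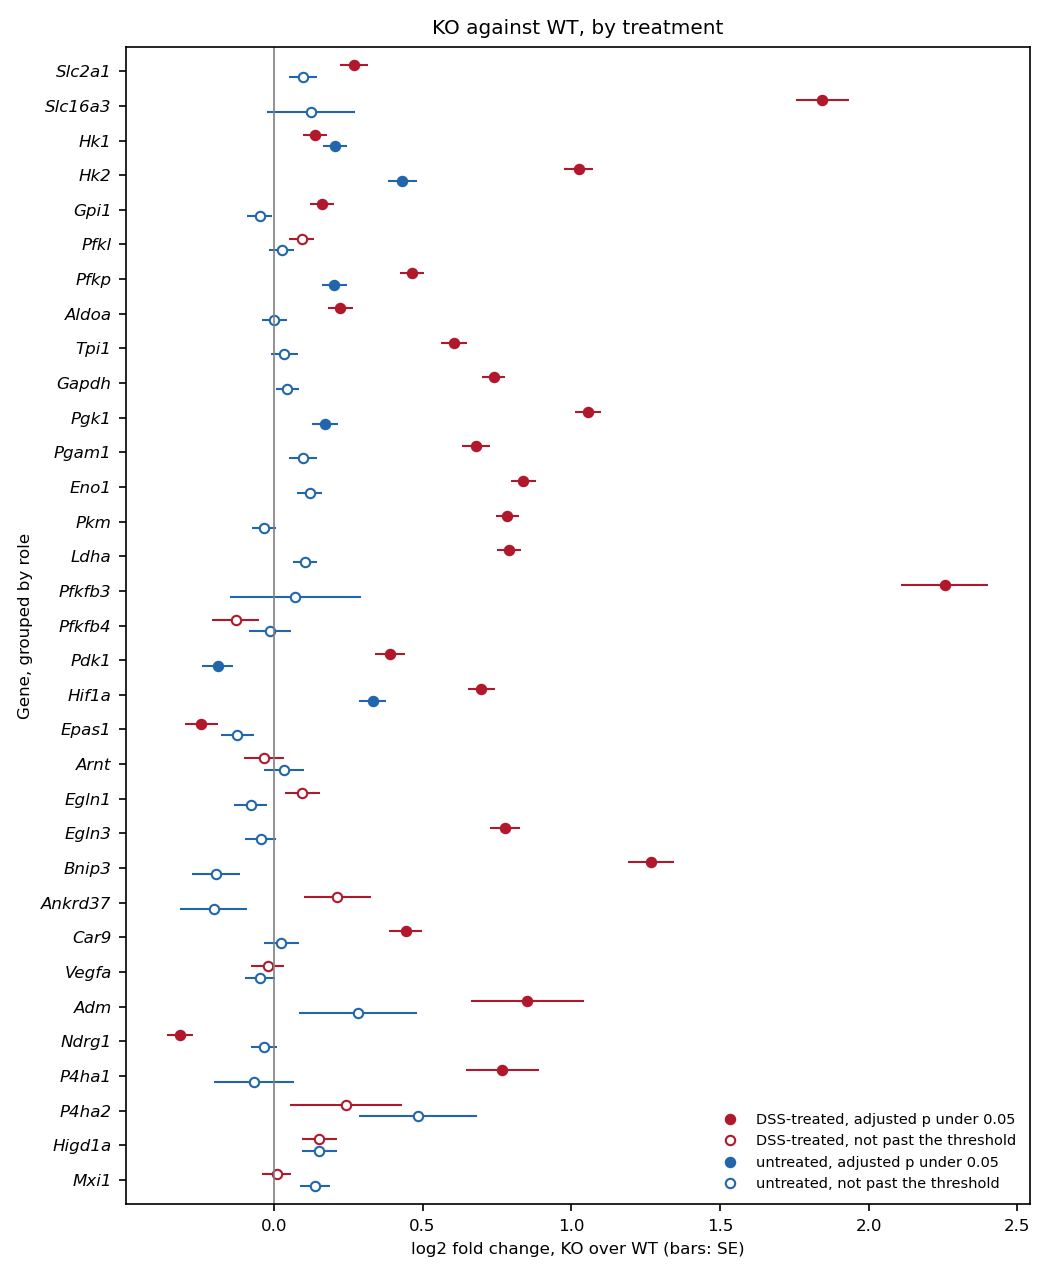
log2 fold change (points) with its SE (bars) of the 33 genes, without the second Aldoa entry, in KO over WT, for DSS-treated mice in red and untreated mice in blue; filled points have an adjusted p under 0.05 and open points do not. Most red points lie right of 0, up to Pfkfb3, Slc16a3 and Bnip3, and most blue points lie close to 0, with Hk2 and Hif1a the called genes furthest to the right.

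DSS went with higher levels of most of these genes in KO. Of the 34 entries, 19 were higher in DSS-treated KO than in untreated KO and 5 were lower (70.6%), where 41.6% of all genes tested were called, 21.7% higher and 19.8% lower. The median was 0.36, beside 0.00 over all genes, and the KO libraries with and without DSS did not overlap in 30 of the 33 genes and in 68.4% of all genes. From the values above, Slc16a3 rose by 2.83 ± 0.10, adjusted p = 4.01e-11, and Pfkfb3 by 2.79 ± 0.16, adjusted p = 4.32e-09, on the log2 scale, which is 7.12-fold for Slc16a3 and 6.93-fold for Pfkfb3. Bnip3 followed at 0.99 ± 0.08, adjusted p = 9.33e-08. Of the enzymes, 10 of 13 were higher, led by Eno1 (0.83 ± 0.04, adjusted p = 1.07e-09), Pgk1 (0.79 ± 0.04, adjusted p = 3.63e-09), Gapdh (0.60 ± 0.04, adjusted p = 1.68e-08) and Pfkp (0.60 ± 0.04, adjusted p = 2.93e-08).

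Hk2, Tpi1, Pkm, Ldha, Pgam1 and Gpi1 rose in KO by 0.24 to 0.47 on the log2 scale (Gpi1 by 0.37 in place of 0.24 with transcript length offset), and Hk1 fell by 0.15, a call lost without untreated KO replicate 2 (adjusted p = 0.082). P4ha1 (0.86 ± 0.12), Car9 (0.79 ± 0.06), Egln3 (0.67 ± 0.05), Pdk1 (0.62 ± 0.05) and Hif1a (0.35 ± 0.04) were also higher with DSS in KO. Adm was 0.50 ± 0.18 with an adjusted p of 0.0406, a call lost in 7 of 15 alternatives: without either DSS-treated KO library, without untreated KO replicate 2, with DESeq2, with no filter on low counts, with transcript length offset and with only the 4 libraries compared. Lower with DSS in KO were Pfkfb4 (-0.56 ± 0.08, adjusted p = 3.29e-05), Vegfa (-0.54 ± 0.05, adjusted p = 1.45e-06) and Epas1 (-0.37 ± 0.06, adjusted p = 0.000107). The second Aldoa entry was lower too (-1.22 ± 0.46, adjusted p = 0.0446), a call lost when any 1 of the 8 libraries was left out, with DESeq2, with no filter on low counts and with transcript length offset. Slc2a1, Aldoa and Ankrd37 were called without DSS-treated KO replicate 1, and Ndrg1 and Egln1 without DSS-treated KO replicate 2.

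In WT the same treatment went with more falls than rises. Of the 34 entries, 6 were higher in DSS-treated WT than in untreated WT and 13 were lower (55.9%), where 37.2% of all genes tested were called, 18.9% higher and 18.3% lower. The median was -0.08, beside -0.01 over all genes, and the WT libraries with and without DSS did not overlap in 27 of the 33 genes and in 70.2% of all genes. Slc16a3 rose by 1.11 ± 0.13, adjusted p = 1.22e-05, and Car9 (0.37 ± 0.06, adjusted p = 0.000218), Pfkp (0.34 ± 0.04, adjusted p = 2.53e-05), Ndrg1 (0.39 ± 0.04, adjusted p = 8.22e-06) and Mxi1 (0.24 ± 0.05, adjusted p = 0.00196) were higher. Pfkfb3 was higher as well (0.61 ± 0.20, adjusted p = 0.0287), a call lost without untreated WT replicate 2 or either DSS-treated WT library, with DESeq2 and with transcript length offset. Vegfa (-0.56 ± 0.05, adjusted p = 1.52e-06), Bnip3 (-0.47 ± 0.08, adjusted p = 0.000498), Pfkfb4 (-0.45 ± 0.07, adjusted p = 0.000291), Egln1 (-0.29 ± 0.06, adjusted p = 0.00122) and Epas1 (-0.25 ± 0.05, adjusted p = 0.00293) were lower.

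Of the enzymes in WT, 7 of 13 were lower with DSS, with folds of 0.787 to 0.918: Pkm (-0.35 ± 0.04, adjusted p = 1.22e-05), Ldha (-0.22 ± 0.04, adjusted p = 0.000833), Pgam1 (-0.21 ± 0.05, adjusted p = 0.00302), Hk2 (-0.16 ± 0.05), Tpi1 (-0.14 ± 0.04), Pfkl (-0.14 ± 0.04) and Aldoa (-0.12 ± 0.04). Pkm, Ldha and Pgam1 kept their call under every alternative tried. Hk2, Tpi1 and Aldoa lost it when any 1 of the 4 WT libraries was left out, Aldoa also without either untreated KO library, and Pfkl lost it without untreated WT replicate 2 or either DSS-treated WT library. With transcript length offset, Pfkl, Tpi1 and Aldoa lost their call and Hk2 was at -0.26. The count of 7 was 4 without untreated WT replicate 1 and 3 without any 1 of the other 3 WT libraries. Egln3 was lower too (-0.16 ± 0.05, adjusted p = 0.0337), a call lost without either untreated WT library or DSS-treated WT replicate 1, with DESeq2 and with transcript length offset. Hk1 (-0.08 ± 0.04), Gapdh (-0.09 ± 0.04), Pgk1 (-0.10 ± 0.04) and Eno1 (0.11 ± 0.04) were not called with all libraries and were called without either DSS-treated KO library.

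Erythrocyte markers, as a sign of blood in the sample, summed to 89.0 and 96.7 CPM in DSS-treated KO, 160.4 and 162 CPM in DSS-treated WT, 72.8 and 73.0 CPM in untreated KO and 67.8 and 69.1 CPM in untreated WT. Markers of surface colonocytes summed to 6568 and 6821 CPM in DSS-treated KO, 7215 and 7316 CPM in DSS-treated WT, 10900 and 10911 CPM in untreated KO and 10534 and 10422 CPM in untreated WT. Of the 10 tested neutrophil markers, 10 were higher with DSS in KO, while in WT 7 were higher and 1, Ly6g, was lower. The 7 were 3 with only the 4 libraries compared. Markers at 0 in an untreated group could be called there only as higher with DSS, so these counts were partly fixed in advance. Ly6g averaged 43.5 CPM in DSS-treated WT and 98.2 CPM in untreated WT and makes up most of the WT sums given above, which are lower in DSS-treated WT although 7 markers were higher there. Of the 12 tested monocyte and macrophage markers, 11 were higher with DSS in KO and 10 in WT. The part of these shifts in the responses to DSS was not tested.

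The 2 responses share no library, so they can be set beside each other. Higher in both were Slc16a3, Pfkp, Pfkfb3 and Car9, and lower in both were Pfkfb4, Epas1 and Vegfa. Higher in KO and lower in WT were Hk2, Tpi1, Pgam1, Pkm, Ldha, Egln3 and Bnip3, 7 of the 34 entries, and no entry was lower in KO and higher in WT. The matching share of all genes was not counted. As given above, the rise of Pfkfb3 and the falls of Hk2, Tpi1 and Egln3 in WT lost their call in some alternatives. The difference itself was tested as the interaction, the change with DSS in KO minus the change with DSS in WT. In it 19 entries were higher and 1 was lower (58.8%), where 21.4% of all genes tested were called, 10.8% higher and 10.6% lower. The median was 0.39, beside 0.01 over all genes. The difference between the responses, on the log2 scale, was largest for Pfkfb3 (2.18 ± 0.27, adjusted p = 6.76e-05), Slc16a3 (1.72 ± 0.18, adjusted p = 1.24e-05) and Bnip3 (1.46 ± 0.11, adjusted p = 7.33e-07). Pgk1 (0.88 ± 0.06, adjusted p = 3.46e-07) and Pkm (0.82 ± 0.06, adjusted p = 2.39e-07) led the enzymes, of which 11 of 13 were called.

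Of the genes that encode no glycolytic enzyme, Egln3 (0.82 ± 0.07), P4ha1 (0.84 ± 0.18), Pdk1 (0.58 ± 0.07), Car9 (0.42 ± 0.08) and Hif1a (0.36 ± 0.06) had a higher response in KO, and Ndrg1 a lower one (-0.28 ± 0.06, adjusted p = 0.00506). Epas1, Vegfa and Pfkfb4 had differences of -0.12 ± 0.08, 0.02 ± 0.07 and -0.11 ± 0.11, which did not pass the threshold. Adm (0.57 ± 0.28, adjusted p = 0.162) did not pass it either. Gpi1 and Aldoa lost their call without either untreated KO library, without untreated WT replicate 2 and without DSS-treated WT replicate 2, and Aldoa also without DSS-treated WT replicate 1. Without DSS-treated KO replicate 1, Slc2a1, Ankrd37, Egln1 and Epas1 were called as well.

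**Figure D5:**
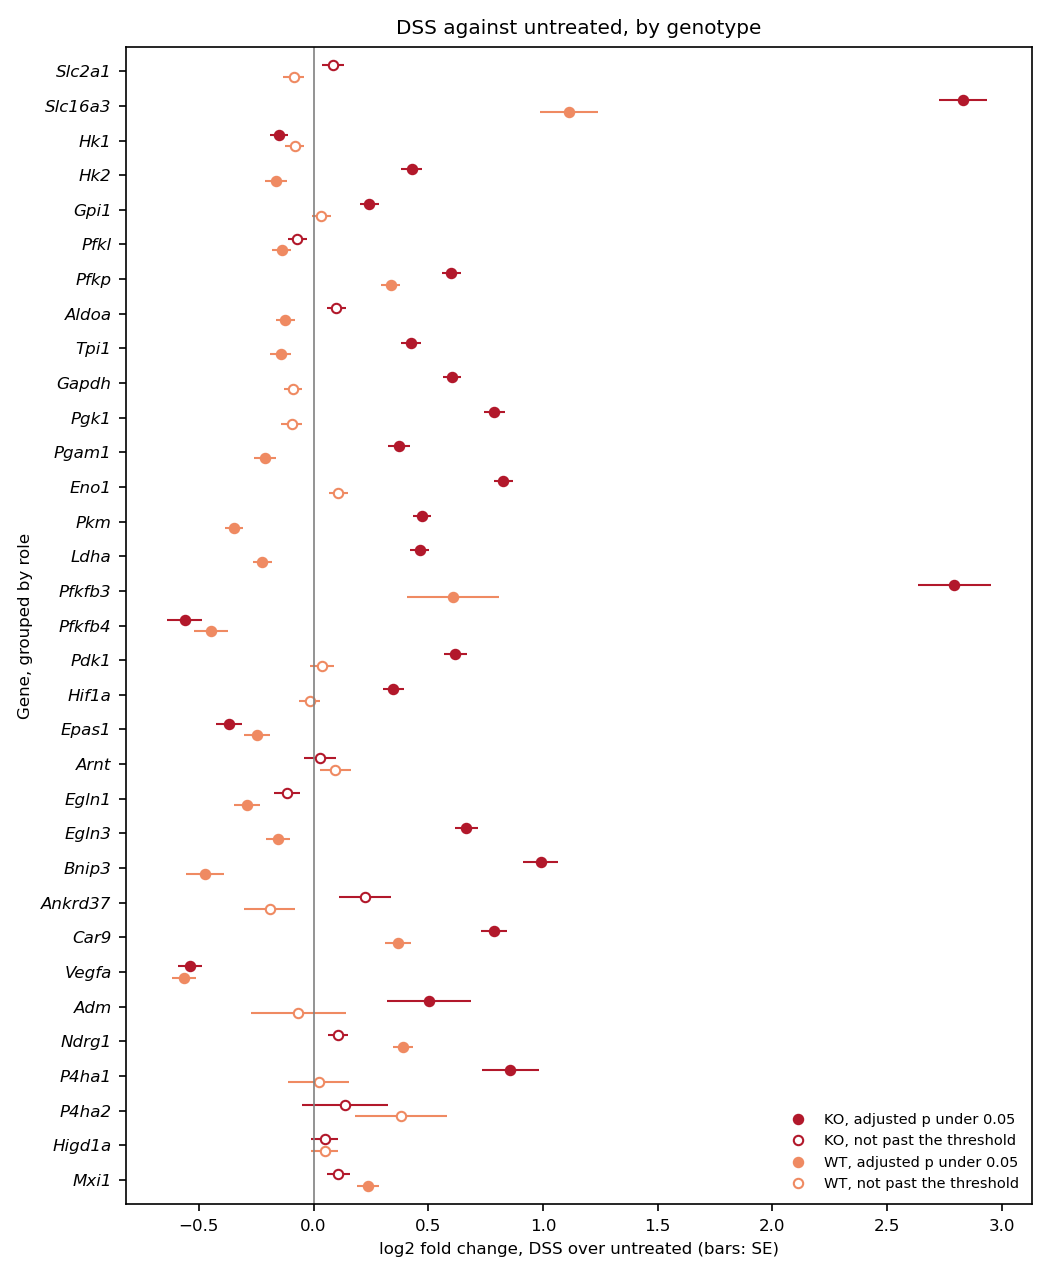
log2 fold change (points) with its SE (bars) of the 33 genes, without the second Aldoa entry, in DSS-treated over untreated mice, for KO in red and WT in orange; filled points have an adjusted p under 0.05 and open points do not. Slc16a3 and Pfkfb3 lie furthest right in both genotypes and higher in KO, the enzymes lie mostly right of 0 in KO and left of 0 in WT, and Vegfa, Pfkfb4 and Epas1 lie left of 0 in both.

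Neighbouring pathways were described by lists of other genes, with the share of all genes called in each comparison as given above; the genes named are those with the smallest p over the 4 comparisons of 2 groups, so not always genes called between the DSS-treated genotypes. All 8 genes of the pentose phosphate pathway, which branches off glycolysis to make NADPH and ribose, were higher in DSS-treated KO than in DSS-treated WT (median log2 fold change 0.32, beside -0.01 over all genes), and 5 of 8 without DSS-treated WT replicate 1. H6pd averaged 42.6 ± 1.95 CPM in DSS-treated KO and 27.1 ± 2.83 CPM in DSS-treated WT (SD, n = 2 each; 0.66 ± 0.08, adjusted p = 2.05e-05), G6pdx 107 ± 1.54 CPM in DSS-treated KO and 76.3 ± 0.722 CPM in DSS-treated WT (SD, n = 2 each; 0.48 ± 0.05, adjusted p = 1.88e-06) and Pgd 449 ± 23.0 CPM in DSS-treated KO and 344 ± 5.08 CPM in DSS-treated WT (SD, n = 2 each; 0.38 ± 0.04, adjusted p = 7.34e-06). In the responses to DSS, 6 were higher and none was lower in KO, and 5 were higher and 1 was lower in WT; at rest 1 was higher in untreated KO than in untreated WT, 0 without any 1 of the untreated libraries or with transcript length offset, and 4 without either DSS-treated KO library or with only the 4 libraries compared. Their interaction was higher for 5 of 8, and for 3 of 8 without any 1 of the untreated libraries, without DSS-treated WT replicate 1 or with transcript length offset.

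Of 17 tested other isozymes and transporters of glycolysis, 4 rose and 4 fell in DSS-treated KO against DSS-treated WT. Eno3, a muscle-type enolase, averaged 102 ± 7.97 CPM in DSS-treated KO and 119.8 ± 1.43 CPM in DSS-treated WT (SD, n = 2 each; -0.23 ± 0.05, adjusted p = 0.00296). Bpgm, which makes the regulator of oxygen release from haemoglobin in red cells, averaged 66.5 ± 0.762 CPM in DSS-treated KO and 52.8 ± 0.795 CPM in DSS-treated WT (SD, n = 2 each; 0.33 ± 0.05, adjusted p = 0.000119). Of 12 tested genes of gluconeogenesis and glycogen use, 3 were higher and 1 lower: Pck1, the committing enzyme of gluconeogenesis, averaged 79.4 ± 3.84 CPM in DSS-treated KO and 177 ± 4.93 CPM in DSS-treated WT (SD, n = 2 each; -1.16 ± 0.05, adjusted p = 5.01e-10). Pcx, pyruvate carboxylase, averaged 113 ± 1.85 CPM in DSS-treated KO and 101 ± 5.28 CPM in DSS-treated WT (SD, n = 2 each; 0.17 ± 0.05, adjusted p = 0.0237), and the glycogen phosphorylase Pygb was not called (0.02 ± 0.04, adjusted p = 0.74). Pck1 was also lower in untreated KO than in untreated WT (-0.60 ± 0.05, adjusted p = 1.16e-06).

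Of the 12 genes for entry of pyruvate into mitochondria, 5 rose and 2 fell in DSS-treated KO against DSS-treated WT, and the 5 were 1 without DSS-treated WT replicate 1 and 3 without DSS-treated KO replicate 2, 1 with DESeq2, and 2 with transcript length offset or with only the 4 libraries compared. Pdk2, another pyruvate dehydrogenase kinase, averaged 36.5 ± 1.12 CPM in DSS-treated KO and 54.4 ± 0.0264 CPM in DSS-treated WT (SD, n = 2 each; -0.58 ± 0.05, adjusted p = 1.42e-06). It was lower in KO at rest as well (-0.36 ± 0.05, adjusted p = 0.000213), and lower with DSS in both genotypes. Pdk3 was higher with DSS in KO (0.62 ± 0.09, adjusted p = 4.2e-05) and in WT (0.61 ± 0.09, adjusted p = 9.43e-05). Mpc1, a subunit of the mitochondrial pyruvate carrier, was lower with DSS in KO (-0.29 ± 0.05, adjusted p = 0.000328) and in WT (-0.41 ± 0.05, adjusted p = 2.27e-05).

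Of 10 tested HIF regulators and partners, 2 rose and 4 fell in DSS-treated KO against DSS-treated WT, with 2 falling without DSS-treated KO replicate 2 and 1 with transcript length offset. Cul2 and Rbx1, parts of the ubiquitin ligase that removes hydroxylated HIF alpha subunits, averaged 42.6 ± 0.324 CPM in DSS-treated KO and 33.2 ± 0.909 CPM in DSS-treated WT (SD, n = 2 each; 0.36 ± 0.06, adjusted p = 0.000266) and 45.3 ± 4.05 CPM in DSS-treated KO and 36.7 ± 0.0174 CPM in DSS-treated WT (SD, n = 2 each; 0.30 ± 0.06, adjusted p = 0.00193). Cited2, which competes with HIF for its coactivators, averaged 40.4 ± 0.0720 CPM in DSS-treated KO and 50.1 ± 0.708 CPM in DSS-treated WT (SD, n = 2 each; -0.31 ± 0.06, adjusted p = 0.000971). Of 20 tested further HIF targets, a list that includes Rora itself, 8 were higher and 4 lower, and 5 higher without DSS-treated WT replicate 1 or with DESeq2; the 4 were 2 when any 1 of the DSS libraries was left out and with DESeq2. Ak4, a mitochondrial adenylate kinase, averaged 38.6 ± 1.53 CPM in DSS-treated KO and 10.8 ± 1.02 CPM in DSS-treated WT (SD, n = 2 each; 1.84 ± 0.09, adjusted p = 2.35e-09). Car12, a second surface carbonic anhydrase, averaged 42.2 ± 2.68 CPM in DSS-treated KO and 78.3 ± 1.52 CPM in DSS-treated WT (SD, n = 2 each; -0.89 ± 0.06, adjusted p = 2.05e-08), and Edn1, the vasoconstrictor endothelin, 9.47 ± 0.442 CPM in DSS-treated KO and 22.5 ± 0.197 CPM in DSS-treated WT (SD, n = 2 each; -1.25 ± 0.09, adjusted p = 5.18e-08).

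Ak4 rose with DSS in KO by 3.35 ± 0.11, adjusted p = 1.8e-11 and in WT by 0.85 ± 0.12, adjusted p = 0.000111 (adjusted p of the interaction 4.17e-07). Car12 rose with DSS in WT (1.71 ± 0.06, adjusted p = 5.94e-11) and was not called in KO (0.13 ± 0.06, adjusted p = 0.103), with an interaction of -1.58 ± 0.09, adjusted p = 3.22e-08. Edn1 fell with DSS in both genotypes, more in KO (interaction -0.74 ± 0.10, adjusted p = 0.00021). Of 4 tested iron transport genes (HIF2A is known to drive iron uptake in the mouse gut), 3 were higher in DSS-treated KO than in DSS-treated WT and none was lower. Tfrc, the transferrin receptor, averaged 720.1 ± 28.2 CPM in DSS-treated KO and 346 ± 1.87 CPM in DSS-treated WT (SD, n = 2 each; 1.06 ± 0.04, adjusted p = 2.07e-10). The iron importer Slc11a2 (0.34 ± 0.06, adjusted p = 0.00042) and the exporter Slc40a1 (0.12 ± 0.04, adjusted p = 0.0252) were higher by less, and Slc40a1 was lower in untreated KO than in untreated WT (-0.40 ± 0.04, adjusted p = 1.33e-05).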

How the data were processed

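RNA-seq of distal colon epithelial cells was analysed from 8 libraries, 2 per group, grouped by their labels. Per the submitters' processing notes, the tools were DESeq2 1.18.1, RSEM 1.3.0 and STAR 2.5.3a, with the mm10 genome; their options, the annotation release and the strand setting are not given in the sources used here. The deposited tables hold, per the file headers, the authors' expected counts, which RSEM estimates by sharing out reads that match several genes, and their TPM values, which are scaled by effective length. Expected counts were rounded to whole numbers and summed to 15971642 to 20418466 per library.

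Counts were tested with edgeR 4.0.16 (R 4.3.3): TMM scaling, filterByExpr, 1 quasi-likelihood model over all 8 libraries with 4 residual degrees of freedom, and Benjamini-Hochberg adjustment over 14991 genes in each comparison, with a threshold of 0.05. The comparisons were KO over WT with and without DSS, DSS over untreated in each genotype, and their interaction. CPM values are scaled by TMM, and SEs were derived from each log2 fold change and its F statistic. TPM was used to set levels of different genes beside each other and to draw the enzymes in each library, and was not tested. All 34 entries are described by role; values in every library are given for those called with a log2 change of at least 0.5 and for the HIF subunits and prolyl hydroxylases; named are for each other list up to 3 genes with the smallest p over the 4 comparisons of 2 groups. 1 gene of these lists is not reported here. The genes and lists were chosen with earlier results of these data known. Positions are from GENCODE M21. Alternatives were RLE scaling, no filter on low counts, DESeq2 1.42.0, effective-length offsets, a replicate block, each library left out, only the 4 libraries compared, and near-identical copies summed. The procedure was tested on simulated data that gave each gene the same spread in every group. The real groups differ in spread, as the coefficients of variation above show, and the simulation does not cover that setting.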

Additional observations from a re-analysis of the deposited data

Results flagged for a closer look

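For 20 of the 34 entries the change with DSS differed between the genotypes by a test of the difference itself, the interaction in edgeR's quasi-likelihood model. The values that follow are the log2 change with DSS in KO minus that in WT. Among the enzymes the difference was 0.88 for Pgk1, 0.82 for Pkm, 0.72 for Eno1, 0.69 for Gapdh, 0.69 for Ldha, 0.59 for Hk2, 0.58 for Pgam1, 0.57 for Tpi1, 0.26 for Pfkp, 0.22 for Aldoa (ENSMUSG00000030695.16) and 0.21 for Gpi1. Among transport and flux regulation it was 1.72 for the lactate exporter Slc16a3, 2.18 for Pfkfb3 and 0.58 for Pdk1. Among the HIF genes and their targets it was 0.36 for Hif1a, 0.82 for Egln3, 1.46 for Bnip3, 0.84 for P4ha1 and 0.42 for Car9. Ndrg1 alone among the called entries had a negative difference, -0.28. Groups of 2 libraries are too small for a check of single libraries that stand apart.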

How the results depend on the processing

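With 2 libraries per group the libraries leave 4 residual degrees of freedom. The quasi-likelihood test also draws the spread of each gene toward that of all genes, so p-values rest on other genes too. A group left with 1 library is assumed to vary like the others. Of 93 called values of single genes, 75 kept their call under every alternative, 0 reversed, and 76 of 1394 alternative values lost the threshold. At rest 6 entries were called, against 10 with only the 4 libraries compared and 2 to 11 with 1 library left out. With 1 library left out the count was 22 to 27 (24 with all) between the DSS-treated genotypes, 21 to 25 (24) for DSS in KO, 13 to 23 (19) for DSS in WT and 18 to 24 (20) for the interaction. Over all genes DESeq2 called 1246 in place of 2310 at rest, 3801 in place of 5855 between the DSS-treated genotypes, 3409 in place of 5573 for DSS in WT and 1684 in place of 3208 for the interaction; length offsets gave 1290 at rest and 1794 for the interaction. All-gene counts were 953 to 3174 at rest with 1 library left out, 3659 for DSS in WT without DSS-treated WT replicate 1, and as low as 1891 for the interaction, without untreated KO replicate 1. Deviations of replicate 1 from its group mean, over 9280 genes, correlated at 0.268 between DSS-treated KO and DSS-treated WT. In untreated WT they correlated at -0.261 with DSS-treated KO and -0.172 with DSS-treated WT. Other pairs of groups lay between -0.0198 and 0.0639. Whether libraries share a batch was not tested. With a replicate block the counts were 6 at rest, 24 between the DSS-treated genotypes and 19 for DSS in WT. They were 24 for DSS in KO and 20 for the interaction, and no call of these entries changed. With the numbers of untreated WT crossed, 20 entries were called for DSS in WT. Over all genes 5930 were called there, against 5573 without a block and 5449 with the numbers as labelled. This alternative, like the summing of copies, was chosen after seeing the data. The cause of these shifts was not tested.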
